A study of Mus musculus with 24 samples.

Results

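Expression of 10 genes for factors that muscle cells release, or that stressed cells induce, was followed in cultured mouse muscle cells: Fgf21, Gdf15, Stc2, Ptgs2, Il15, Il6, Lif, Ccl2, Metrnl and Fndc5. Each gene was read from the array feature (transcript cluster, a set of probes for 1 locus) that carried its symbol and no other. Of the 10 genes, 9 had such a cluster, 1 each, among 22180 genes tested, and Gdf15 is not analysed here. The cells were primary cultures made from quadriceps muscle of ICR mice, whose age the labels do not give. Some offspring came from control dams fed freely. The others came from dams that, from day 12.5 of pregnancy on, received 50% of the food eaten by controls at the same stage; all dams ate freely after delivery, and litters of both kinds were adjusted to 1 size. All cells were expanded on Matrigel with basic fibroblast growth factor and differentiated in low-glucose medium with 5.5 mM glucose and 2% serum, here called standard medium. Another set was kept overnight in a limited medium with 0.5 mM glucose, glutamine at 1 mM, added carnitine (0.5 mM) and 1% serum, so that more than glucose differed between the media.

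The 2 maternal diets and 2 media gave 4 groups of 6 arrays, 24 in all. The labels give 12 culture numbers, each on 1 array per medium, without saying what was numbered (animals, litters or flasks, for example). The p-values therefore weigh effects against the variation among these arrays, some of it possibly technical. The mean of 15 measured markers of differentiated myotubes lay between 10.84 and 11.67 on all arrays (log2 signal), and that of 14 leukocyte markers between 4.93 and 5.14. Cultures 16 and 20 stood apart by the mean of 10 measured fibroblast markers, which was 7.12 to 7.57 on their arrays and 5.50 to 6.31 on the other 20. Probes differ in brightness, so levels are compared between arrays and not between genes. In RNA from a whole culture, fewer cells of a type and less RNA per cell cannot be told apart.

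Muscle is a secretory tissue as well as a contractile one. The peptides and proteins it releases, called myokines, act on the muscle itself and on fat, liver, bone, brain and immune cells. Several of them, FGF21 and GDF15 among them, are also products of the integrated stress response, in which a shortage of amino acids, misfolded protein in the endoplasmic reticulum or failing mitochondria raise the transcription factor ATF4 and its partners. Others act on cytokine receptors that signal through STAT proteins (IL-6, LIF) or are classical targets of NF-kB (CCL2). PTGS2, in part also a target of NF-kB, is an enzyme inside the cell. Its prostaglandin products, and not PTGS2 itself, are released.

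In limited medium, Ptgs2 and Il15 rose and none of the 9 genes fell. Over both maternal diets the Ptgs2 signal was 2.06-fold higher and that of Il15 1.46-fold higher than in standard medium. The other 7 genes did not pass the test: Fgf21 (a log2 difference of 0.66), Metrnl (0.21), Ccl2 (0.06), Il6 (0.04), Stc2 (-0.00096), Lif (-0.01) and Fndc5 (-0.13). All differences are limited minus standard medium, tested with limma over all genes with Benjamini-Hochberg adjustment, and an adjusted p under 0.05 counted as a call. In this comparison 6.84% of all genes tested were called and 3.56% were called higher in limited medium, beside 2 of the 9. The median difference of the 9 genes was 0.06, against 0.01 over all genes. For maternal diet, limma called none of the 9 genes in either medium or over both.

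**Figure D1:**
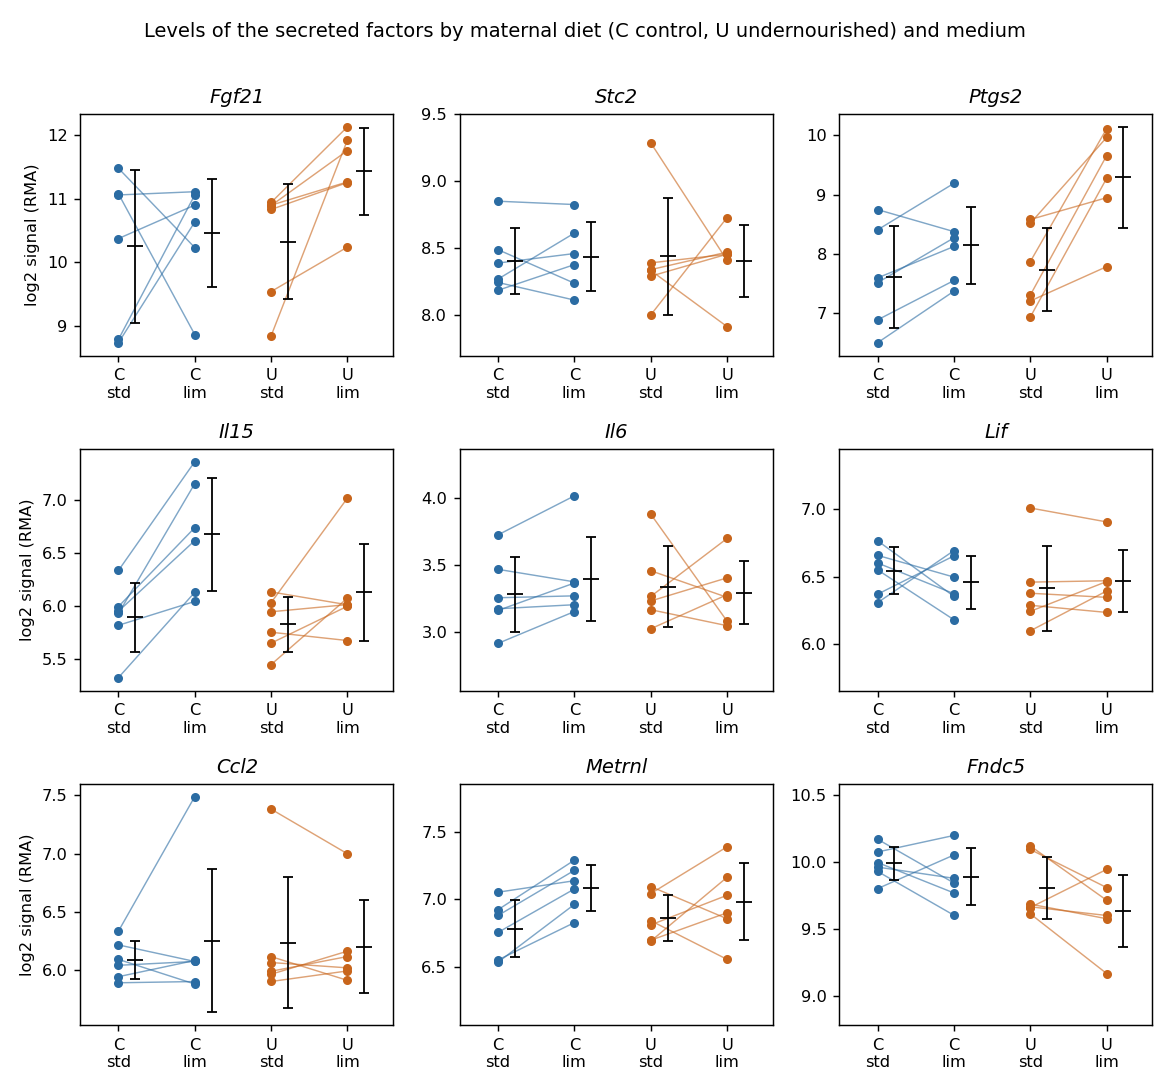
Levels of the 9 measured genes (log2 signal after RMA, a method that makes 1 value from the probes of a cluster) on the 24 arrays, by maternal diet (C control, U undernourished) and medium (std standard, lim limited). Points are arrays, thin lines join arrays with the same culture number, and black bars give the mean and SD of 6 arrays; the vertical scale differs between genes. Ptgs2 and Il15 shift upward in limited medium, Fgf21 moves in both directions in control cultures, and single cultures stand far above the rest for Ccl2.

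**Figure D2:**
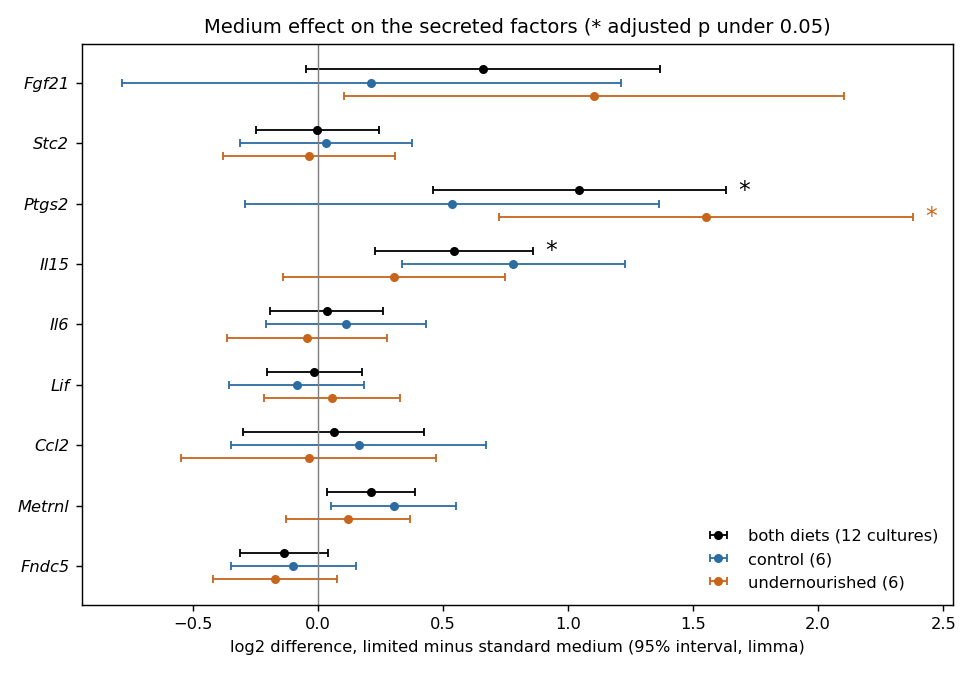
Difference between media for each gene (limited minus standard, log2) with its 95% interval from limma, over both maternal diets and within each. An asterisk marks an adjusted p under 0.05: Ptgs2 and Il15 over both diets, and Ptgs2 in undernourished cultures.

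Fgf21 encodes an endocrine fibroblast growth factor that acts through FGF receptors with the co-receptor beta-Klotho and is known as a hormone of fasting and of stressed muscle. Its gene lies on chromosome 7 (chr7:45613890-45615490, GRCm38.p6). The window around its start, from 250 bases before to 50 after (RefSeq, GRCm38.p6, chr7:45615441-45615740, minus strand), is shown because Fgf21 levels ran with those of stress-response genes across these arrays, and that response is known to act through short elements near gene starts. Capitals mark TTGCATCA at positions -139 to -132 relative to the start and the E-box CACGTG at -50 to -45.
Fgf21: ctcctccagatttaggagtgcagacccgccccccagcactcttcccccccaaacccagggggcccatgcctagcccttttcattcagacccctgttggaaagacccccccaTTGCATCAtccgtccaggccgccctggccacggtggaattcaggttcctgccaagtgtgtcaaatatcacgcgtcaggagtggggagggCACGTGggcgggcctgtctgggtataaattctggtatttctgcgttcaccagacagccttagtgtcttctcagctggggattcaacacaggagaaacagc
The first element matches the composite C/EBP-ATF element TTGCATCA and, read on the opposite strand, the core amino acid response element TGATGNAA, so both matches are of the same bases. Both strands were searched, and of 32851 such windows 0.895% held TTGCATCA, 3.97% TGATGNAA and 7.15% CACGTG. A match is a description of the letters and not a measured site.

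In control cultures the lowest, median and highest Fgf21 levels were 8.74, 10.72 and 11.48 in standard medium and 8.86, 10.77 and 11.11 in limited medium. In undernourished cultures they were 8.85, 10.86 and 10.94 in standard medium and 10.24, 11.51 and 12.14 in limited medium. The ranges of the control groups lay nearly on top of each other, while 5 of the 6 undernourished limited arrays lay above every undernourished standard array. The group means followed the order control standard (10.25 ± 1.21, SD, n = 6), undernourished standard (10.33 ± 0.91), control limited (10.47 ± 0.85) and undernourished limited (11.43 ± 0.68). The lower 3 differed by less than the SD of any of them. The difference between media was 0.66 ± 0.34 (SE) over both diets (limma, adjusted p = 0.285), 0.21 ± 0.48 in control cultures (adjusted p = 0.90) and 1.11 ± 0.48 in undernourished cultures (adjusted p = 0.305), so none passed. Without culture 9 the difference in undernourished cultures was 0.71, and in control cultures it ran from -0.20 to 0.70 with 1 culture left out (lowest without culture 5, highest without culture 11). Between arrays with the same culture number, Fgf21 was higher in limited medium in 10 of 12 numbers, among them 6 of 6 undernourished (exact sign-flip test over all 12 numbers, two-sided, unadjusted p = 0.139). The 2 exceptions were large: culture 11 differed by -2.22 and culture 16 by -1.25. Culture 9, at 3.08, and control culture 5, at 2.27, differed most in the other direction.

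The genes whose levels were most like those of Fgf21 over the 24 arrays, of 10333 genes at or above the median level, were Aldh18a1 (r = 0.95), Yars (0.94) and Asns (0.93). Aldh18a1 makes the proline precursor from glutamate, Yars charges tyrosine transfer RNA and Asns makes asparagine. Taken within a medium, r with Asns was 0.96 in standard and 0.97 in limited medium, and the medium difference of Asns was 0.09 ± 0.15 (adjusted p = 0.799). In standard medium Fgf21 and Asns were low together in control cultures 5 and 24 and in undernourished culture 9. These values share arrays and normalization, and r describes likeness only.

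Ddit3, which encodes the stress transcription factor CHOP, was set against the 9 genes culture by culture, a choice made with earlier results known. The Ddit3 difference between media was above 0 in all 12 culture numbers, from 0.18 in culture 11 to 2.54 in culture 24. The 2 arrays of culture 9 and those of culture 12 did not deviate together (r of -0.0497 and 0.018). Their differences may thus not join matched arrays, and the Fgf21 relation was not read without both. Culture numbers with a larger Ddit3 difference had a larger Fgf21 difference (Pearson r = 0.80, permutation p = 0.00141, adjusted over 9 relations 0.0127; Spearman rho = 0.85, permutation p = 0.00095, adjusted 0.00855; n = 12). Without cultures 9 and 11, the farthest from the median of the Fgf21 difference, r was 0.76 (n = 10). It was 0.92 among the 6 control and 0.48 among the 6 undernourished numbers, and 0.79 with each diet's mean removed (permutation p = 0.00214, adjusted 0.0193). Both differences of a number come from the same arrays. For Ptgs2 the same r was 0.61 (adjusted permutation p = 0.173), and the other 7 genes had r between -0.48 and 0.14 with adjusted p of 0.334 or more.

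**Figure D3:**
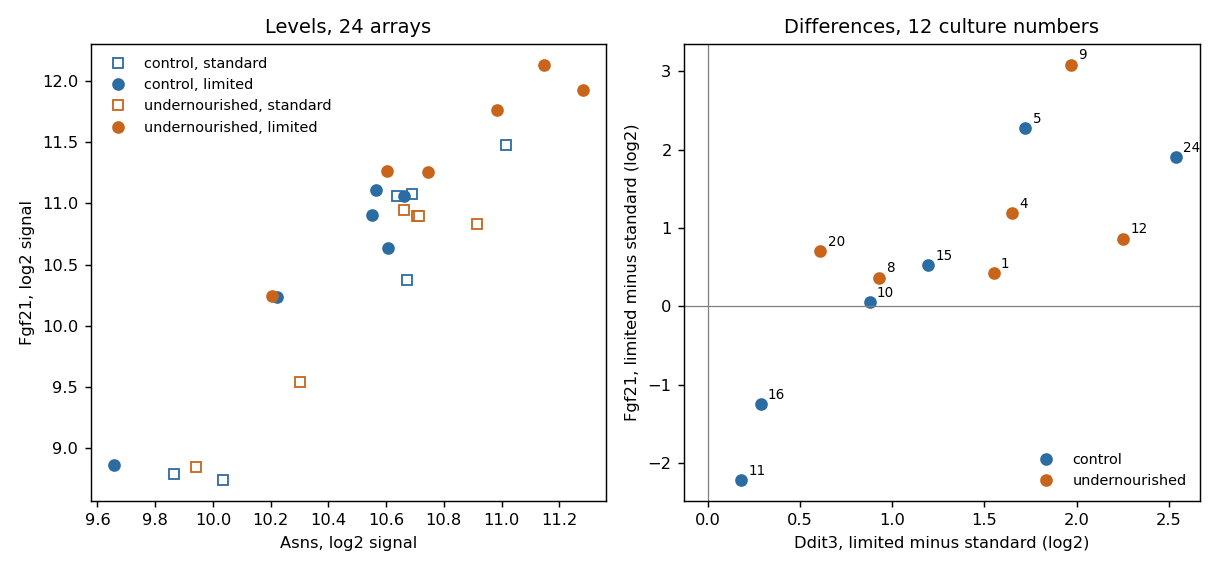
Left, Fgf21 level against Asns level on the 24 arrays (log2 signal). Right, the Fgf21 difference between media against that of Ddit3 for the 12 culture numbers (limited minus standard, log2), with the number beside each point. Fgf21 is higher where Asns is higher in both media, and cultures 11 and 16, with small Ddit3 differences, have Fgf21 differences below 0.

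Stc2, stanniocalcin-2, is a secreted glycoprotein that restrains the protease PAPP-A and is also known as a stress-response gene (chr11:31359441-31370061, GRCm38.p6). Its group means were 8.41 ± 0.24 and 8.44 ± 0.26 in control standard and limited arrays and 8.44 ± 0.44 and 8.41 ± 0.27 in the undernourished ones (SD, n = 6). The medium difference was -0.00096 ± 0.12 (SE, adjusted p = 0.998), with a 95% interval from -0.25 to 0.24. Culture 12 in standard medium, at 9.28, was the highest array, and the next of its group was 8.39. None of the 6 motifs searched was found in the Stc2 window. The most alike genes were Baiap2l1 (r = 0.77), the muscle acetylcholine receptor subunit gene Chrna1 (0.77) and Best1 (0.76).

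Ptgs2 encodes the inducible cyclooxygenase, which makes the common precursor of prostaglandins (chr1:150100031-150108234, GRCm38.p6). Its window (RefSeq, GRCm38.p6, chr1:150099781-150100080, plus strand) is shown because Ptgs2 had the largest difference between media of the 9 genes over both diets. Capitals mark the E-box CACGTG, 17 to 22 bases after the start, the only one of the 6 motifs found.
Ptgs2: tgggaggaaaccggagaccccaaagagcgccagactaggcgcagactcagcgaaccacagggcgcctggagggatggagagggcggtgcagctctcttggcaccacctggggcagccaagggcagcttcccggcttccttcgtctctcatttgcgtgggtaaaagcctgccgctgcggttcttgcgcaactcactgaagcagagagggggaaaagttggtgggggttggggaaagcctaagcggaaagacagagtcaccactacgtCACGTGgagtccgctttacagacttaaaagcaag
The other motifs searched, on both strands, were the cAMP response element TGACGTCA (1.79% of all windows), the unfolded protein response element TGACGTGG (0.676%), the kappaB-like GGANTTTCC (1.25%), and TGATGNAA and TTGCATCA as above. The absence of a match says only that these letters are not in this window.

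In control cultures the lowest, median and highest Ptgs2 levels were 6.50, 7.56 and 8.75 in standard and 7.37, 8.20 and 9.19 in limited medium. In undernourished cultures they were 6.94, 7.59 and 8.58 in standard and 7.79, 9.46 and 10.11 in limited medium. The undernourished limited arrays lay above all undernourished standard arrays except that culture 20 (7.79) lay within their range, whereas the control groups overlapped over most of theirs. The medium difference was 1.04 ± 0.28 over both diets (limma, SE, adjusted p = 0.025, 95% interval 0.46 to 1.63). It was 1.55 ± 0.40, or 2.93-fold, in undernourished cultures (adjusted p = 0.049), where 1.46% of all genes were called and 0.726% called higher. In control cultures it was 0.54 ± 0.40 (adjusted p = 0.610). The difference between these effects was 1.01 ± 0.57 (adjusted p = 1.00), so the data do not show that they differ by maternal diet.

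Between arrays with the same culture number, Ptgs2 was higher in limited medium in 11 of 12 (exact sign-flip test over all sign patterns, two-sided unadjusted p = 0.00146). The difference was above 2 in undernourished cultures 4, 9 and 12, and culture 16, at -0.37, was the exception. The call over both diets was lost without culture 4, 9, 11 or 12 (differences of 0.97 to 1.02, adjusted p from 0.057 to 0.070) and without cultures 9 and 12 together (0.86, adjusted p = 0.148). The call in undernourished cultures was lost without any of cultures 1, 4, 9, 10, 11, 12 and 24 (1.39 to 1.57, adjusted p from 0.061 to 0.218), so it stands close to the threshold.

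Plk2, a stress-inducible kinase (r = 0.90), Ppp1r15a, which restores translation after stress (0.88), and Wars, the tryptophan transfer RNA synthetase (0.86), were most like Ptgs2 over the 24 arrays. Of these, Ppp1r15a (0.64 ± 0.15, adjusted p = 0.010) and Wars (0.48 ± 0.12, adjusted p = 0.019) rose in limited medium over both diets, and Plk2 had a difference of 0.38 ± 0.12 (adjusted p = 0.056). Of the 15 measured genes that make, carry or break down prostaglandins, 1 rose and none fell, which is about the share called over all genes (6.84%). It was Ptges2, a microsomal prostaglandin E synthase (0.37 ± 0.08, adjusted p = 0.009), and the median of the 15 was 0.05.

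Il15 encodes a cytokine that muscle makes and that supports lymphocytes and has been linked to muscle and fat mass (chr8:82331624-82403252, GRCm38.p6). In control cultures the lowest, median and highest levels were 5.32, 5.94 and 6.33 in standard and 6.04, 6.68 and 7.36 in limited medium. In undernourished cultures they were 5.45, 5.85 and 6.13 in standard and 5.67, 6.01 and 7.02 in limited medium. Of the limited control arrays, 4 lay above every standard control array. Of the limited undernourished arrays only that of culture 4, at 7.02, lay above every standard undernourished array. The difference was 0.54 ± 0.15 over both diets (limma, adjusted p = 0.031), 0.78 ± 0.22, or 1.72-fold, in control cultures (adjusted p = 0.104) and 0.30 ± 0.22 in undernourished cultures (adjusted p = 0.605), where it was 0.17 without culture 4. The difference between these effects was -0.48 ± 0.31 (adjusted p = 1.00).

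Il15 was higher in limited medium in 6 of 6 control and 4 of 6 undernourished culture numbers (exact sign-flip test, unadjusted p = 0.00342). The Il15 differences were largest in control cultures 5 (1.23) and 24 (1.03) and in undernourished culture 4 (0.99). The call over both diets was lost without culture 4, 5, 10, 11, 12 or 20 (0.48 to 0.56, adjusted p from 0.055 to 0.080) and without cultures 9 and 12 together (0.59, adjusted p = 0.069). The most alike genes were Syngr1 (r = 0.84), Saysd1 (0.84) and Socs6, a member of the SOCS family of cytokine signalling inhibitors (0.81), which rose in limited medium (0.35 ± 0.08, adjusted p = 0.010).

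In control cultures alone, limma called none of the 9 genes, where 0.343% of all genes were called. At an unadjusted p under 0.05 Il15 and Metrnl passed there, beside 2897 genes in all. The arrays of each of the 6 control culture numbers deviated together (r from 0.193 to 0.463), and with the number as a replicate block limma called Il15 in control cultures (adjusted p = 0.011), beside 551 genes in all. With array weights it called Il15 as well (adjusted p = 0.046).

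Il6 encodes the cytokine best known as released by contracting muscle (chr5:30013114-30019975, GRCm38.p6). It was the only one of the 9 whose mean lay below the median of all genes (6.02): its arrays read from 2.92 to 4.01. Group means were 3.28 ± 0.28, 3.40 ± 0.31, 3.34 ± 0.30 and 3.29 ± 0.24 (control standard and limited, undernourished standard and limited), with a medium difference of 0.04 ± 0.11 (adjusted p = 0.903). The highest Il6 array was that of culture 16 in limited medium. The Il6 window held the kappaB-like letters GGATTTTCC at positions -43 to -35.

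Lif encodes leukemia inhibitory factor, a cytokine of the same receptor family that acts on myoblasts (chr11:4257568-4272514, GRCm38.p6). Its arrays read from 6.10 to 7.01 with a medium difference of -0.01 ± 0.09 (adjusted p = 0.960), and both arrays of culture 20, at 7.01 and 6.91, were the highest. The genes most like Il6 were Nrep, Mmp14 and Tmem120a (r from 0.73 to 0.74), and those most like Lif were Lrp1, Zswim6 and Cspg4 (0.77 to 0.80). Without cultures 16 and 20 these r values were 0.52 to 0.70 for Il6 and 0.54 to 0.67 for Lif.

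Ccl2 encodes the chemokine that draws monocytes into tissue through the receptor CCR2 (chr11:82035577-82037452, GRCm38.p6). It differed between cultures rather than between groups. The 20 arrays of 10 culture numbers read from 5.88 to 6.22. Culture 20 read 7.38 in standard and 7.00 in limited medium, and culture 16 read 6.34 and 7.49. The medium difference was 0.06 ± 0.18 (adjusted p = 0.889), and -0.01 without cultures 16, 20 and 24, below 0 as well without culture 16 alone (-0.04).

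The cultures high in Ccl2 were those high in fibroblast transcripts. The collagen gene Col1a1 read 10.42 to 11.76 on the arrays of cultures 16 and 20 and 6.90 to 9.08 on the others. The glial gene Cdh19 read 9.42 and 10.39 in culture 20, 6.13 to 6.29 in culture 16 and 3.33 to 6.15 elsewhere, with the higher of these in culture 24, whose Ccl2 was 5.89 and 5.91. Leukocyte markers had means of 4.96 to 5.07 in cultures 16 and 20, within the range of the other arrays. Pdgfrb (r = 0.90), Thbs2 (0.88) and Col6a2 (0.88), genes of mesenchymal cells and their matrix, were most like Ccl2. Without cultures 16 and 20 these r values were 0.05, 0.30 and 0.08 (20 arrays). The part of fibroblast content in the Ccl2 level was not tested.

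**Figure D4:**
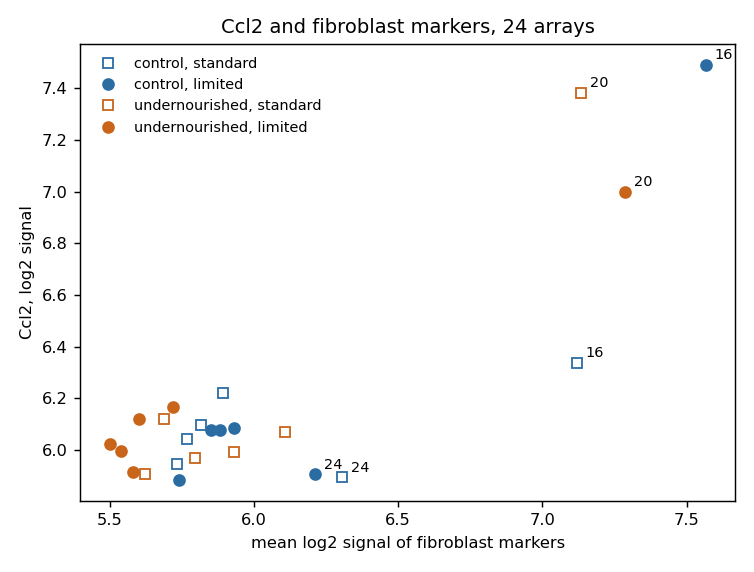
Ccl2 level against the mean of the measured fibroblast markers on the 24 arrays (both log2 signal), by group, with the numbers of cultures 16, 20 and 24 shown. The 4 arrays of cultures 16 and 20 lie apart at the upper right, and culture 24 lies with the other arrays in Ccl2.

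Metrnl, meteorin-like, is a secreted protein linked to exercise and cold (chr11:121702427-121717389, GRCm38.p6). Group means were 6.78 ± 0.21 and 7.09 ± 0.17 in control standard and limited arrays and 6.86 ± 0.17 and 6.98 ± 0.29 in the undernourished ones. The difference over both diets, 0.21 ± 0.09, did not pass the test over all genes (adjusted p = 0.148), nor did that in control cultures, 0.30 ± 0.12 (adjusted p = 0.264). Metrnl was higher in limited medium in 10 of 12 culture numbers, 6 of 6 of them control (exact sign-flip test, unadjusted p = 0.0161). Tmem120a (r = 0.87), Tubb3 (0.84) and Alcam (0.83) were most like it.

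Fndc5 encodes the membrane protein from which irisin is cleaved (chr4:129136870-129144593, GRCm38.p6). Its levels ran in the order control standard (9.99 ± 0.13), control limited (9.89 ± 0.21), undernourished standard (9.81 ± 0.23) and undernourished limited (9.64 ± 0.27), each within the SD of its neighbours. The medium difference was -0.13 ± 0.09 (adjusted p = 0.405), and Fndc5 was lower in limited medium in 9 of 12 culture numbers. Prickle1 (r = 0.76), Usp20 (0.76) and Msto1 (0.75) were most like it.

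**Figure D5:**
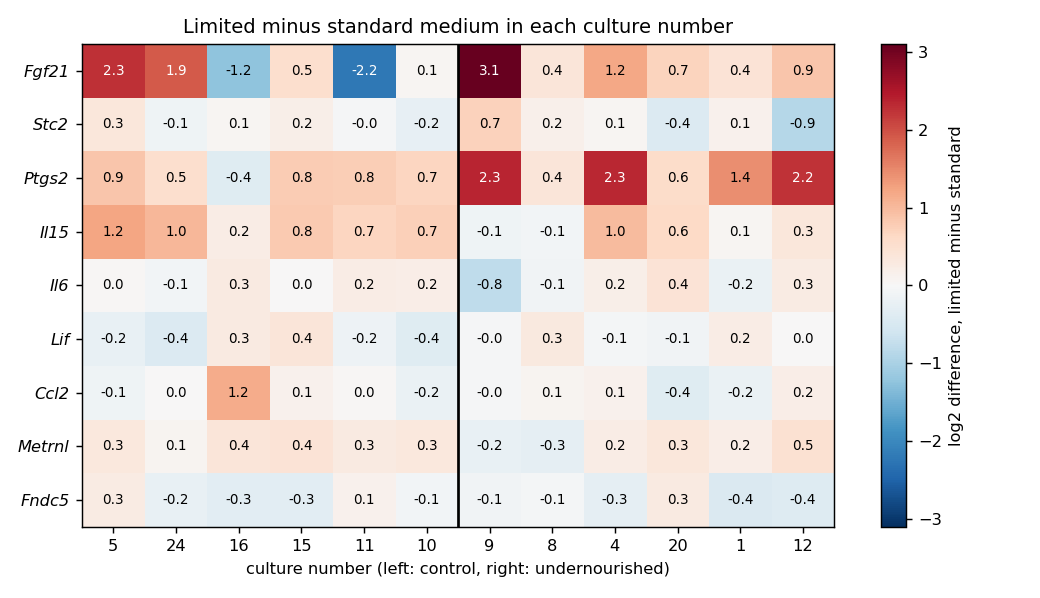
Difference between media for each gene and culture number (limited minus standard, log2; red higher, blue lower in limited medium), with control numbers on the left and undernourished on the right. The Ptgs2 row is above 0 in all but culture 16, and the Fgf21 row spans from -2.22 in culture 11 to 3.08 in culture 9.

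The differences between media of the 9 genes were also set against each other over the culture numbers. Of 36 pairs of within-culture differences, 0 passed a permutation test after adjustment. The strongest were Il6 with Metrnl (Pearson r = 0.75, permutation p = 0.00691, adjusted 0.235; Spearman rho = 0.74, adjusted 0.279) and Il6 with Stc2 (r = -0.72, permutation p = 0.0130, adjusted 0.235; rho = -0.69, adjusted 0.301), over 12 culture numbers. Without cultures 9 and 20 these r values were 0.61 and -0.45. Il6 read low on all arrays (2.92 to 4.01, against a median gene level of 6.02). How much of its differences is background was not tested. Fgf21 and Ptgs2 had r = 0.52 (adjusted permutation p = 0.429).

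Maternal diet was compared in each medium and over both, as undernourished minus control. In each of these comparisons, and for the difference of the medium effect between diets, limma called 0 genes (0% of those tested), while 697, 1206, 791 and 643 genes had an unadjusted p under 0.05 in standard medium, in limited medium, over both media and for the difference of effects. In limited medium, array weights called 1 gene and the fit without culture 20 called 2, none of them among the 9. In limited medium 3 of the 9 had an unadjusted p under 0.05, all with an adjusted p of 0.894: Ptgs2 (1.14 ± 0.40, SE), Il15 (-0.54 ± 0.22) and Fndc5 (-0.25 ± 0.12, and -0.16 without culture 1). Fgf21 differed by 0.96 ± 0.48 there, with a 95% interval of -0.04 to 1.96. In standard medium the 9 differences lay between -0.18 and 0.15. Over both media Fndc5 differed by -0.22 ± 0.09 (unadjusted p = 0.037, adjusted p = 1.00). Intervals as wide as that of Fgf21 leave differences of more than 1 within reach, so these p-values do not show that the diets gave equal levels.

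The gene lists around the genes followed here were read in the same fit. Of 26 measured stress transcription factors and their regulators, 10 rose and 3 fell over both diets, where 6.84% of all genes were called. Their median difference was 0.25 against 0.01 for all genes. Ddit3 (1.31 ± 0.23, adjusted p = 0.001), the pseudokinase gene Trib3 (1.21 ± 0.23, adjusted p = 0.003) and Atf3 (0.77 ± 0.17, adjusted p = 0.008) rose, and were higher in 12, 10 and 10 of 12 culture numbers. The transcription factor genes Klf4 (0.72 ± 0.15) and Atf4 (0.60 ± 0.12) rose too. The immediate early gene Egr1 fell by 0.72 ± 0.15 (SE, adjusted p = 0.004). Atf4 and Egr1 were named outside the naming rule. In undernourished cultures 8 of the 26 rose and 1 fell, where 1.46% of all genes were called, with Trib3 at 1.68 ± 0.33 and Ddit3 at 1.49 ± 0.33. In control cultures none passed, where 0.343% of all genes were called, the largest difference being 1.13. These lists were chosen with results of these data known, so their direction is not independent evidence.

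Of 52 other myokines and muscle-secreted factors, 3 rose and 1 fell over both diets, with a median of 0.01, a share near the 6.84% called over all genes and so no result about the list. The 3 were Creld2 (1.63 ± 0.18, adjusted p = 1.61e-05), Nucb2, the precursor of nesfatin (1.00 ± 0.20, adjusted p = 0.003), and Manf (0.91 ± 0.17, adjusted p = 0.002). Creld2 and Manf are secreted proteins known to be induced by stress of the endoplasmic reticulum. The growth factor gene Igf1 fell by 0.30 ± 0.08 (adjusted p = 0.025). Creld2 was higher in 12 of 12 culture numbers and was the only gene of the 7 pathway lists called in control cultures (1.56 ± 0.26, adjusted p = 0.007). In undernourished cultures Creld2 (1.70 ± 0.26), Nucb2 (1.23 ± 0.28) and Manf (1.05 ± 0.23) rose.

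Of 27 measured receptors and partners of the secreted factors, Fgfr3 rose (0.32 ± 0.09) and Fgfr1 fell (-0.30 ± 0.09), both receptors of the fibroblast growth factor family. Of 21 genes of STAT3 and STAT5 signalling and feedback, Cebpb rose (0.69 ± 0.13, adjusted p = 0.003) and Fos fell (-0.37 ± 0.10, adjusted p = 0.032). The medians of these lists were 0.03 and 0.06. The share called over all genes, to be set beside each list here, was 6.84%. The calls of the receptors and those of the STAT genes, 1 up and 1 down in each list, lay near it and are no result about these lists. Of 29 NF-kB subunits and targets, the subunit gene Rela (0.31 ± 0.09) and the inhibitor gene Nfkbib (0.23 ± 0.07) rose, and the adhesion molecule gene Vcam1 (-0.45 ± 0.10) and the subunit gene Rel (-0.31 ± 0.09) fell, with a median of 0.02. Of 27 metabolic regulators of muscle, the nuclear receptor genes Nr4a3 (0.49 ± 0.14), Nr4a2 (0.49 ± 0.12) and Esrra (0.25 ± 0.06) rose. The coactivator gene Ppargc1b (-0.53 ± 0.08) and Hif1a (-0.25 ± 0.07), the latter named outside the naming rule, fell. In undernourished cultures 1.46% of all genes were called. There Cebpb (0.85 ± 0.19) and Nr4a2 (0.68 ± 0.17, and 0.45 with adjusted p = 0.203 without culture 1) rose and Ppargc1b (-0.60 ± 0.12) and Vcam1 (-0.59 ± 0.15) fell.

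Markers of cell types were read in the same fit, beside the 6.84% of all genes called over both diets. Over both diets the muscle creatine kinase gene Ckm (0.47 ± 0.12) and the fast troponin gene Tnni2 (0.49 ± 0.11) rose among 15 myotube markers, the tenocyte factor gene Scx rose among 7 (0.46 ± 0.11), and Vcam1, also listed for satellite cells, fell among 11. None of the 10 fibroblast, 14 leukocyte, 9 endothelial, 9 smooth muscle and pericyte, 7 adipocyte and 7 glial markers passed. The part of these marker differences in the rise of Ptgs2 and Il15 was not tested. Cultures 16, 20 and 24 were set apart by fibroblast or glial transcripts. Leaving them out therefore does not address the myotube, tenocyte and satellite cell markers named here. Without these 3 cultures limma still called both genes over both diets (adjusted p of 0.014 for Ptgs2 and 0.043 for Il15). Without culture 20 alone Il15 was not called.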

How the data were processed

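Primary mouse muscle cells were measured on 24 single-colour arrays in 4 groups of 6. The deposited table holds 1 log2 value per array for each of 41345 transcript clusters, made by the authors with RMA in Affymetrix Expression Console, per the submitters' processing notes. The base of the logarithm is not stated; it was read as log2 from the values, with a lowest of 1.69, a highest of 14.1 and array medians of 5.60 to 5.81. For tool versions and the clusters' genome build: not given in the sources used here. No 2 arrays held identical values, the highest correlation of a pair being 0.99.

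Clusters were named from the platform's annotation, updated by Entrez identifier through RefSeq (GRCm38.p6), which held the gene of 23328 clusters with 1 symbol. Exactly 1 symbol belonged to 23521 clusters and several to 1814, and the other 16010 stayed unnamed here. The cluster with the highest mean was used for the 1082 genes with more than 1, which left 22180 genes. Each was tested with limma 3.58.1 (R 4.3.3) on all 24 arrays, in 7 two-sided comparisons with Benjamini-Hochberg adjustment over all genes and a threshold of 0.05. Same-numbered arrays deviated together with r over 0.1 in all 6 control numbers and in undernourished cultures 1, 4, 8 and 20, but not in undernourished cultures 9 and 12. The main fit used no block on the culture number, and a block on every number was an alternative. Tests of differences within culture numbers paired the arrays of all 12, cultures 9 and 12 among them. For maternal diet over both media, arrays of a culture number were averaged first. The procedure was tested on simulated data. The number of arrays limits the precision.

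Differences within culture numbers were tested by exact sign flips, and relations by 100000 permutations (scipy 1.17.1). Promoter windows from RefSeq matched 7 of the 9 measured genes, and Il15 and Ccl2 are not shown. The members, the 7 pathway lists and the 9 marker lists were chosen with earlier results of these data known. The rule named all members, up to 4 called genes of each pathway list in the medium effect over both diets (2 in other comparisons), defining markers, and for each member the 3 most correlated genes (Pearson r) among those no dimmer than the median gene; any other gene named was chosen after its values were seen. Alternatives covered normalization, dim genes, a block on the culture number, array weights, the variance model, the arrays in the fit, a second number in the titles as covariate, the threshold and left-out cultures. Leaving out cultures 9 and 12 was added after the data were seen.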

Additional observations from a re-analysis of the deposited data

Results flagged for a closer look

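Each group of 6 arrays, and each set of 6 within-culture differences, was searched for a single value far from the others (Dixon's test at its 95% critical value). Of 54 sets tested, 10 held such a value, where chance flags about 1 in 20 sets. Culture 16 and culture 20 account for 7 of the 10.

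Ccl2 stood apart at 7.49 in culture 16 among control limited arrays (next 6.09), at 7.38 in culture 20 among undernourished standard arrays (next 6.12) and at 7.00 in culture 20 among undernourished limited arrays (next 6.17). Its difference between media in culture 16, at 1.15, was above the other control cultures (next 0.14). The mean of the fibroblast markers was also highest in these cultures, as described above, and its part in these values was not tested. In the same cultures, Il6 stood apart at 4.01 in culture 16 in limited medium (next 3.37), Lif at 6.91 in culture 20 in limited medium (next 6.47), and the Ptgs2 difference in culture 16, at -0.37, was below the other control cultures (next 0.53).

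The Fgf21 difference of culture 9, at 3.08, was above the other undernourished cultures (next 1.19). Its standard array was the lowest of its group for Fgf21, at 8.85. The Il15 level of culture 4 in limited medium was 7.02 (next 6.07), and the Stc2 level of culture 12 in standard medium was 9.28 (next 8.39). No cause was tested for these values.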

How the results depend on the processing

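Ptgs2 and Il15 were both called over both diets under every alternative run on all cultures, and without cultures 16, 20 and 24. Without cultures 9 and 12, an alternative added after the data were seen, 0 of the 9 genes were called over both diets and 0 in undernourished cultures. With 1 culture left out, from 0 to 2 were called over both diets and from 0 to 1 in undernourished cultures. The single call in undernourished cultures (Ptgs2) fell to 0 after quantile normalization again, with a trended robust variance, with only the groups compared and with the second title number as covariate (adjusted p of 0.051, 0.076, 0.098 and 0.054). In control cultures 1 gene (Il15) was called with array weights.

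Same-numbered arrays were alike in every control number and in undernourished cultures 1, 4, 8 and 20, but not in undernourished cultures 9 and 12. Same-numbered arrays deviated together with r from -0.0497 to 0.559, over 0.1 in 10 of 12 numbers, and in 10 of 12 an array correlated best with its own number's partner, all but cultures 9 and 12. With the number as a replicate block, 2597 genes were called over both diets (1517 without), 551 in control (76) and 1007 in undernourished cultures (324). Of the 9 genes, 2, 1 (Il15) and 1 were called, and Metrnl, at 0.21, which passed the unadjusted exact test, missed the threshold over all genes (adjusted p = 0.055). Array weights called 2099, 275 and 571 genes.

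The sign turned in values that no test had called, and the cause was not tested. With 1 culture left out, the medium difference ran from -0.20 to 0.70 for Fgf21 in control cultures, from -0.012 to 0.11 (both diets) and -0.14 to 0.11 (undernourished) for Il6, and from -0.061 to 0.019 (both diets) for Lif. For Stc2 it ran from -0.077 to 0.083 (both diets), -0.029 to 0.090 (control) and -0.19 to 0.13 (undernourished), with -0.22 to 0.10 for the difference of effects, and for Ccl2 from -0.035 to 0.10, -0.034 to 0.24 and -0.083 to 0.033 (both diets, control, undernourished). Without cultures 16, 20 and 24 it was -0.0083 for Il6, 0.053 for Stc2 and -0.0060 for Ccl2 over both diets, 0.042 (Stc2) and 0.033 (Ccl2) in undernourished and -0.045 (Ccl2) in control cultures, with 0.078 for the Ccl2 difference of effects. Without cultures 9 and 12 it was 0.072 for Il6 in undernourished cultures and 0.0033 (Lif) and 0.0090 (Stc2) over both diets. Stc2 in control cultures was -0.0016 after quantile normalization again and with array weights, and Ccl2 in undernourished cultures was 0.029 with array weights.

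Other counts over all genes moved by more than 1.5 times. With 1 culture left out, from 991 to 1603 genes were called over both diets (lowest without culture 5, highest without 20), from 10 to 162 in control (lowest without 5, highest without 20) and from 51 to 469 in undernourished cultures (lowest without 4, highest without 20). With genes dimmer than the median left out, 149 were called in control cultures. With only the groups compared, 59 were called in undernourished cultures. At an adjusted p under 0.1, 2325, 253 and 622 were called (both diets, control, undernourished), and without cultures 9 and 12, 909, 39 and 10. Quantile normalization again called 31 higher and 51 lower in control cultures, against 37 and 39. No member had a second cluster, so that alternative gave no value. Without detection calls, how far any member stood above background is unknown. This holds most for Il6, but also for Il15. In standard medium the Il15 group means, 5.89 (control) and 5.83 (undernourished), lay below the median gene level of 6.02.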
